A study of Mus musculus with 12 samples.

Results

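Described here are 34 genes that cells use when unfolded protein builds up in the endoplasmic reticulum (ER), the compartment where secreted and membrane proteins fold, or when amino acids run short. They were taken by gene symbol, by a rule that names the genes and sets no threshold on a measured value, and all 34 were found among the 18193 mouse genes on the arrays. The genes were chosen with earlier results of these data known. The RNA was hybridised to 12 Affymetrix mouse arrays, 1 for each heart sample, in 4 groups of 3: wild-type hearts after a sham operation, wild-type hearts after aortic banding, apelin knockout hearts after a sham operation, and apelin knockout hearts after aortic banding. Apelin is a secreted peptide that acts on heart and vessel cells, and banding narrows the aorta so that the left ventricle pumps against a higher pressure. The design asks what banding and loss of apelin each do to heart RNA, and whether the effect of banding differs between genotypes. Both genotypes went through both operations, so surgery itself was shared by all 4 groups. The knockout allele, strain, sex, age, heart region and time after surgery were not stated in the labels.

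ER stress is sensed by 3 membrane proteins, IRE1 (gene Ern1), PERK (Eif2ak3) and ATF6 (Atf6), which together start the unfolded protein response. IRE1 splices Xbp1 mRNA, ATF6 is cut to release a transcription factor, and PERK phosphorylates the initiation factor eIF2-alpha, which slows translation while that of Atf4 mRNA rises. Shortage of amino acids reaches ATF4 by another kinase, GCN2, and ATF4 raises genes for amino acid synthesis and uptake. Heart muscle under pressure load is a known setting of ER stress. The splicing, cutting and phosphorylation steps leave no direct trace in the array values used here, which measure RNA for a gene.

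The promoters of Herpud1, Asns and Chac1 are shown because their letters hold the response elements for which these genes are known, and because they are among the members with the largest differences described further on. Each line gives the 250 bases before the RefSeq start site on GRCm38.p6, written 5′ to 3′ on the strand of the gene, with motif matches in capitals. Herpud1 lies at chr8:94386179-94386428 on the plus strand, Asns at chr6:7693210-7693459 on the minus strand and Chac1 at chr2:119350992-119351241 on the plus strand.
Herpud1: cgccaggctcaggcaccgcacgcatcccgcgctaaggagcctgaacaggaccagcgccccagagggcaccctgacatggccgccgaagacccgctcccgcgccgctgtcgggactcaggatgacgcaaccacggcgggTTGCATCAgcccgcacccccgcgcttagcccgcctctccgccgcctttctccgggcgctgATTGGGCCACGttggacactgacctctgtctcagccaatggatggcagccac
Asns: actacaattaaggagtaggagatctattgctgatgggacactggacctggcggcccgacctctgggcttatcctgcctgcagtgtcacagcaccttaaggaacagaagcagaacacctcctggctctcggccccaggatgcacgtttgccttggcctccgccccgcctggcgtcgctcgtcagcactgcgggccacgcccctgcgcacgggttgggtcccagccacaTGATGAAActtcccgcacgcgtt
Chac1: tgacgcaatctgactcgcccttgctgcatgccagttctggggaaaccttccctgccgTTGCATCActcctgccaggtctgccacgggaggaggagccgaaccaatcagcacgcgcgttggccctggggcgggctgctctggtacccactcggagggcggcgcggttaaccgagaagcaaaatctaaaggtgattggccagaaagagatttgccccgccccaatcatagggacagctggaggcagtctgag
In Herpud1, the first capitals are a match to the amino acid response element on the opposite strand and the second a match to the second type of ER stress element. In Asns and Chac1 the capitals are a match to the amino acid response element, on the strand of the gene in Asns and on the opposite strand in Chac1.

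RefSeq windows of 300 bases (250 before the start site and 50 after it) were found for 29 members (all but Atf6, Derl1, Hyou1, Manf and Slc7a5) and searched on both strands. The ER stress element, CCAAT and CCACG with 9 bases of any kind between them, was matched in 5 of 29 member windows, against 0.137% of 27025 genes. Its 5 matches are printed in the direction of the motif, with the fixed letters in capitals, because they show how the genes share the ends of the element and differ in its middle.
Calr: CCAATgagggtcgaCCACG
Canx: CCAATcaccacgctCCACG
Pdia6: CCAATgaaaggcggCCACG
Creld2: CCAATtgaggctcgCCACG
Syvn1: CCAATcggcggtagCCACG
Calr, Canx, Pdia6 and Creld2 make ER proteins of the folding group, and Syvn1 makes the ubiquitin ligase of ER-associated degradation. The second type of ER stress element, ATTGG and CCACG with 1 base between them, was matched in Herpud1 and in 0.0444% of all genes. The amino acid response element, TGATGNAA, was matched in 5 members (Trib3, Herpud1, Asns, Chac1 and Slc7a11) and in 4.51% of all genes. The unfolded protein response element, TGACGTGG, was matched in 0 members and in 0.714% of all genes. No match of 1 motif overlapped a match of another in the member windows. A match describes the letters of a window and does not show that a factor binds there.

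The levels below are the deposited intensities, whose trimmed mean (2% left out at each end) was 150 on every array, and values are given in the order replicate 1, 2, 3. A gene was represented by its brightest probe set over the 12 arrays, and levels are compared between arrays, never between genes. Differences are of log2(intensity + 16), which understates the change of dim genes, and they come from limma fitted to all 10916 genes in the upper 60% of mean intensity, with Benjamini-Hochberg adjustment over those genes and a threshold of 0.05. Of the 34 members, 30 passed this filter, whose lowest mean was 48.5. Slc7a5, with a mean of 33.0 in wild-type and 73.2 in knockout hearts and of 43.5 in sham and 62.8 in banded hearts, passed only through the groups where it was high, so no count or median below that holds it is support for a difference. Pdia4, Psat1, Sesn2 and Slc7a11 did not, so no statement about them was possible beyond their low levels, which ranged from 26.8 to 49.6 for Pdia4 and from 4.11 to 23.4 for Slc7a11. The labels call the 3 arrays of a group biological replicates without naming animals, so p-values measure the spread between these samples.

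3 arrays stood apart. In Apln itself, where the deleted part of the gene and so its relation to the probe set were not stated in the labels, wild-type arrays read 205 to 333 and knockout arrays 63.7 to 160, except the library labelled knockout banded 1, which read 271, within the wild-type range. The same library had a summed level of airway epithelial marker genes of 1637, against 142 to 215 in the other 11 arrays. That sum was high through Scgb1a1 (1094) and Scgb3a2 (410). The other airway genes, Sftpb (54.3), Sftpc (49.2) and Sftpa1 (30.4), lay within the range of the other arrays. The library labelled wild-type banded 3 read 1255 for Xist, against 43.3 to 89.2 elsewhere, and wild-type sham 3 differed in several genes named below. Of 59 marker genes listed for ventricular, atrial and non-muscle cells, 50 were tested. Summed ventricular muscle marker genes were lower in knockout banded arrays (66887 to 68567) than in wild-type banded arrays (75974 to 95056). They ran from 67498 to 129225 in wild-type sham arrays. The highest intensity on an array was also lower in knockout banded (10813 to 11291) than in wild-type banded arrays (11901 to 15130). It was 10231 on wild-type sham 2 and 21832 on wild-type sham 3, which held the lowest and highest wild-type sham sums. The part of array brightness in the ventricular sums was not tested. Summed fibroblast marker genes ranged from 8332 to 14161 in knockout banded arrays and from 7777 to 9629 in knockout sham arrays. Of the 7 fibroblast genes, 2 (Col1a1 and Col3a1) were higher past the threshold for banding in knockouts. The mean of Dcn in knockouts was 5002 after sham and 4707 after banding, and that of Tcf21 was 166 and 168. Those of Lum (902 and 1038), Pdgfra (314 and 431) and Dpt (1082 and 1137) were higher after banding, without passing the threshold. Summed atrial marker genes ranged from 4626 to 37006 and overlapped between the 4 groups. Within groups they spread widely, at 37006, 30587 and 6616 in wild-type banded arrays and 10235, 4626 and 31399 in wild-type sham arrays. In knockouts they read 6426, 19318 and 28329 after sham and 12857 to 17174 after banding. Wild-type banded 3 thus had the lowest atrial sum of its group and wild-type banded 1 the highest. In bulk tissue, fewer cells of a type and less RNA per cell cannot be told apart, and the part of these arrays and marker levels in the member values was not tested.

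**Figure D1:**
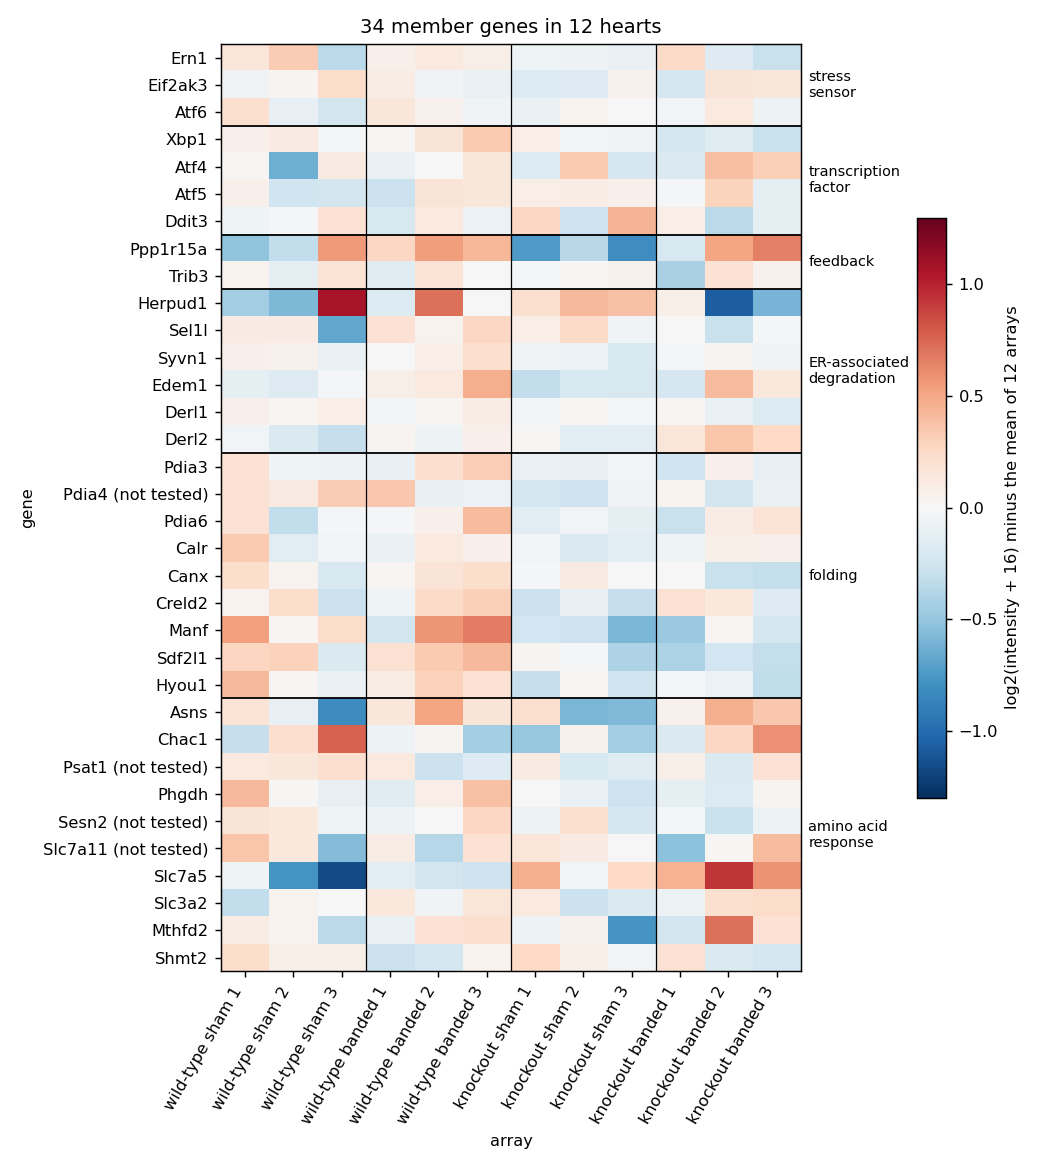
Heat map of the 34 members (rows, grouped by role) in the 12 arrays (columns, grouped by genotype and surgery). Colour gives log2(intensity + 16) minus the mean of the 12 arrays for that gene, from blue (lower) to red (higher). Wild-type banded 3 is the highest array for 11 of the 30 tested members.

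Across the 12 arrays the members varied about as much as other genes. The standard deviation of log2(intensity + 16) ran from 0.08 to 0.61 among the 30 tested members with a median of 0.21, against a median of 0.20 over all genes tested, and 17 of 30 lay above that median. Wild-type banded 3 was the highest of the 12 arrays for 11 members (Xbp1, Sel1l, Syvn1, Edem1, Derl1, Pdia3, Pdia6, Canx, Creld2, Manf and Sdf2l1) and the lowest for 0, while it was the highest for 5.89% of all genes tested. Those 11 members are the transcription factor Xbp1 and genes of folding and ER-associated degradation, and no amino acid response gene was among them. At the other end of the same group, wild-type banded 1 was the lowest of its 3 arrays for 8 of 8 tested folding members, against 31.9% of all genes. Wild-type sham 3 was the lowest of all 12 for 6 members (Ern1, Atf6, Sel1l, Derl2, Asns and Slc7a5) and the highest for Eif2ak3, Herpud1 and Chac1. The spread among wild-type arrays was therefore wide in several members, and it enters each test below.

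No member passed the threshold in any of the 7 comparisons made here (banding in each genotype and averaged, knockout against wild type in each surgery group and averaged, and the interaction). The values nearest to it were Ppp1r15a and Derl2 for banding in knockout hearts, both higher after banding. At an unadjusted p under 0.05, 3 members were higher and 2 lower after banding in knockouts, and 0 higher and 0 lower after banding in wild types. The sizes and their intervals are given below by role.

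In the probe sets kept, the sensors Ern1, Eif2ak3 and Atf6 showed small differences, from -0.18 to 0.13 in the comparisons between groups. Other probe sets reached further. For knockout against wild type after sham they gave -0.68 to -0.05 in Ern1 and -0.39 to 0.18 in Eif2ak3. Ern1 read 244, 278 and 167 in wild-type sham hearts, 227, 238 and 230 after banding, 209, 206 and 204 in knockout sham hearts and 262, 192 and 174 after banding. The 4 groups overlapped, and the banding difference was 0.04 in wild types and 0.00 in knockouts (95% interval -0.37 to 0.37). Eif2ak3 lay between 82.1 and 118 on all 12 arrays, with a banding difference of -0.09 in wild types and 0.13 in knockouts. Atf6 lay between 765 and 1052, with differences of 0.10 and 0.02.

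Among the transcription factors, Xbp1 had the lowest values in knockout banded hearts. Xbp1 encodes the factor that IRE1 splicing activates, and the intensity counts spliced and unspliced forms together. It read 1205, 1238 and 1134 in wild-type sham hearts and 1162, 1300 and 1463 in wild-type banded hearts. In knockouts it read 1227, 1123 and 1115 after sham and 980, 1032 and 942 after banding. All 3 knockout banded arrays were below the other 9. Banding differed by -0.23 in knockouts (SE 0.10, limma adjusted p = 0.203) and by 0.13 in wild types (SE 0.10, adjusted p = 0.981). Knockout banded hearts were 0.40 lower than wild-type banded hearts (log2 difference -0.40, SE 0.10, adjusted p = 0.132), and the difference was -0.32 without wild-type banded 3. The interaction, the test of whether banding differed between genotypes, was -0.35 (95% interval -0.65 to -0.06, adjusted p = 0.501). The other 3 Xbp1 probe sets gave -0.30 to -0.11 for knockout against wild type after banding and -0.16 to 0.14 for banding in knockouts, so the lower level after banding within knockouts was not shared by all of them.

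Atf4, Atf5 and Ddit3 showed no such separation. Atf4, the factor through which PERK and GCN2 act, is controlled chiefly at translation, which arrays do not read. It read 1094, 696 and 1181 in wild-type sham, 1019, 1081 and 1206 in wild-type banded, 959, 1378 and 929 in knockout sham and 950, 1433 and 1348 in knockout banded hearts. The 4 groups overlapped, with the narrowest range in wild-type banded hearts, and the banding difference was 0.18 in wild types and 0.19 in knockouts (95% interval -0.27 to 0.65). The 2 other Atf4 probe sets gave -0.06 to 0.50 in wild types and 0.07 to 0.79 in knockouts. Ddit3, which encodes the stress factor CHOP, read between 167 and 301, and banding differed by -0.28 in knockouts and -0.09 in wild types. The second Ddit3 probe set gave -0.67 in knockouts and, with the other sign, 0.47 in wild types. Atf5 read between 373 and 563, with differences of -0.03 and 0.15.

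The feedback gene Ppp1r15a had the largest banding difference of the 30 tested members on this log2 scale in knockouts. It encodes GADD34, which directs a phosphatase to eIF2-alpha and so restores translation. In knockout hearts it read 159, 211 and 150 after sham and 237, 400 and 443 after banding, and the groups did not overlap. In wild-type hearts it read 187, 218 and 411 after sham and 336, 408 and 377 after banding, where wild-type sham 3 was the highest of all 6. The difference was 0.96 in knockouts (SE 0.27, 95% interval 0.38 to 1.54, limma adjusted p = 0.0665) and 0.51 in wild types (SE 0.27, adjusted p = 0.921). Averaged over genotypes it was 0.73 (SE 0.19, adjusted p = 0.0752), and the interaction was 0.45 (95% interval -0.37 to 1.27). Without knockout banded 1, the library whose Apln level lay within the wild-type range, the difference was 1.22 in knockouts (adjusted p = 0.00913) and 0.86 averaged (adjusted p = 0.00891). Without wild-type sham 3 it was 0.96 in knockouts (adjusted p = 0.0340) and 0.89 averaged (adjusted p = 0.0346). Of all genes, 13.1% and 9.08% passed without knockout banded 1, and 3.79% and 0.376% without wild-type sham 3. Without knockout banded 3 the adjusted p of Ppp1r15a was 0.243 in knockouts and 0.184 averaged. It passed in 3 of 23 fits in knockouts and in 3 of 22 averaged. Trib3, a pseudokinase that ATF4 raises and that restrains ATF4 in turn, read between 44.3 and 76.4, with banding differences of -0.03 in wild types and -0.08 in knockouts.

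**Figure D2:**
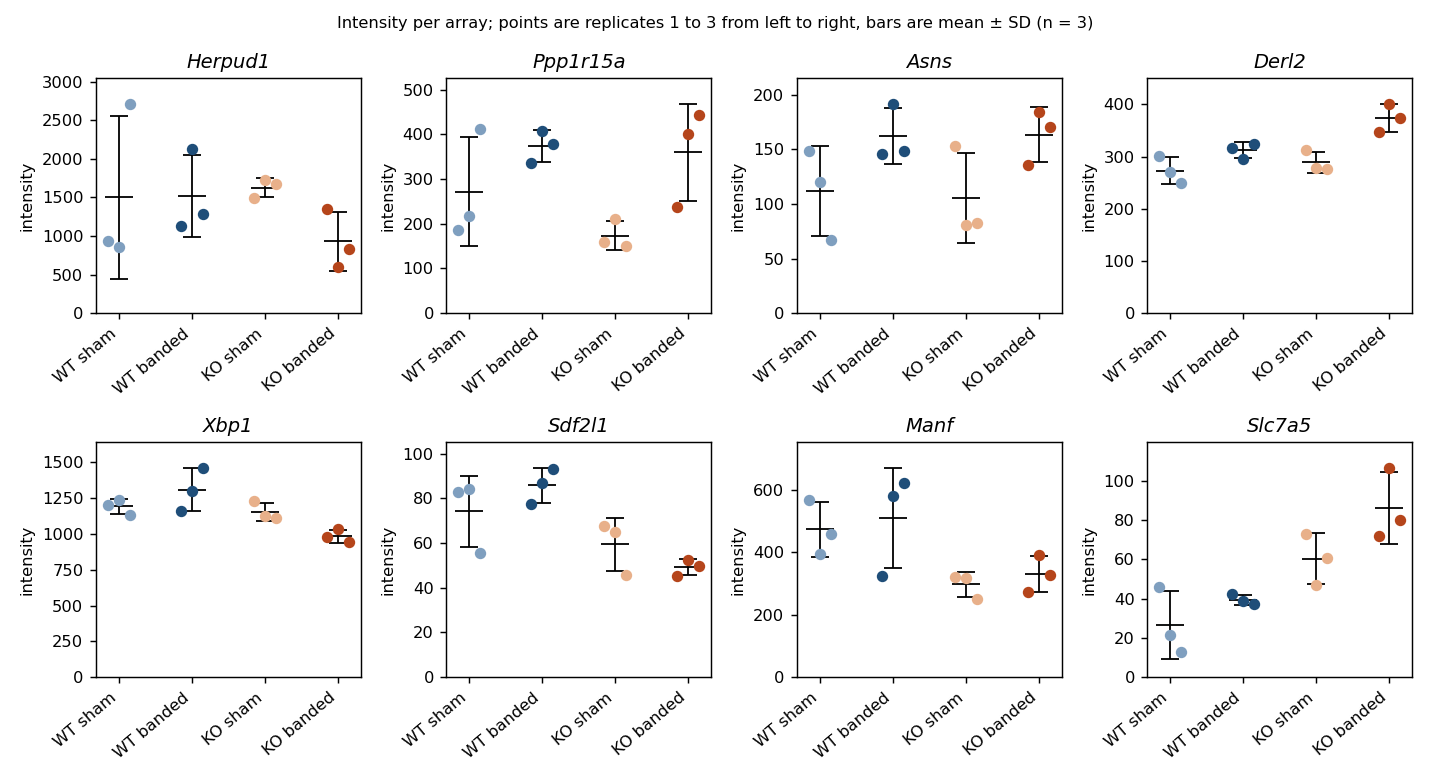
Deposited intensity (vertical axes, starting at 0, each panel on its own scale) of 8 members on the 12 arrays, as points by group with a bar at each group mean ± SD (n = 3). Ppp1r15a and Derl2 are higher in all knockout banded arrays than in all knockout sham arrays, and Slc7a5 is higher in all 6 knockout arrays than in all 6 wild-type arrays.

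Within ER-associated degradation, Herpud1 was lower and Derl2 higher after banding in knockouts. Herpud1 encodes an ER membrane protein that helps to carry misfolded proteins to degradation. It read 1489, 1725 and 1671 in knockout sham hearts and 1356, 603 and 836 in knockout banded hearts. These 2 groups did not overlap, while wild-type hearts read 936, 853 and 2717 after sham and 1134, 2126 and 1288 after banding. The wild-type range, 853 to 2717, held 4 of the 6 knockout values, and the wild-type sham mean was 1502 ± 1053 (SD, n = 3). The banding difference was -0.87 in knockouts (SE 0.39, limma adjusted p = 0.229) and 0.17 in wild types (SE 0.39, adjusted p = 0.994), with an interaction of -1.04 (95% interval -2.25 to 0.17). The second Herpud1 probe set gave -0.80 for banding in knockouts.

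Derl2 encodes a derlin, a part of the channel that moves misfolded proteins out of the ER. It read 312, 278 and 277 in knockout sham hearts and 348, 401 and 374 after banding, which was above every other array in the series. Wild-type hearts read 301, 270 and 249 after sham and 317, 296 and 325 after banding. The banding difference was 0.35 in knockouts (SE 0.10, limma adjusted p = 0.0712), 0.19 in wild types (SE 0.10, adjusted p = 0.921) and 0.27 averaged (SE 0.07, adjusted p = 0.0794). Without knockout banded 1 it passed the threshold, at 0.40 in knockouts (adjusted p = 0.0322) and 0.30 averaged (adjusted p = 0.0275). Of all genes, 13.1% and 9.08% passed there. With the probe sets of Derl2 averaged, the adjusted p was 0.656 in knockouts and 0.662 averaged over genotypes. The second Derl2 probe set went the other way, at -0.12 for banding in knockouts, so the direction rests on the brighter probe set.

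Edem1, a lectin-like protein that hands misfolded glycoproteins to degradation, was higher in all wild-type banded arrays (97.8, 102 and 133) than in all wild-type sham arrays (83.3, 79.4 and 90.8). In knockouts it read 70.4, 78.0 and 77.0 after sham and 76.6, 127 and 103 after banding, and these overlapped. The banding difference was 0.33 in wild types (SE 0.16, limma adjusted p = 0.921), 0.35 in knockouts (SE 0.16, adjusted p = 0.242) and 0.34 averaged (adjusted p = 0.150). Without knockout banded 1 the averaged difference was 0.42 (adjusted p = 0.0276), in a fit where 9.08% of all genes passed. Sel1l, Syvn1 and Derl1 make other parts of the same machinery. Sel1l read 477 in wild-type sham 3 and between 629 and 930 on the other 11 arrays, and its interaction was -0.52 (SE 0.26, adjusted p = 0.558), while its 4 other probe sets gave -0.25 to 0.01. Syvn1 did not overlap between knockout groups, yet its difference there was 0.10 (SE 0.09), and its second probe set gave -0.13. Derl1 lay between 750 and 913 on all arrays, with a banding difference of -0.03 in wild types and -0.08 in knockouts. After sham, Edem1 was lower in all knockout arrays than in all wild-type arrays, by a log2 difference of -0.14 (SE 0.16).

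The folding members mostly read lower in knockouts than in wild types in both surgery groups, without any of them passing the threshold. After sham the median log2 difference of the 8 tested folding members was -0.20, with 1 of 8 above 0 (Canx, 0.01), against a median of 0.00 and 50.8% above 0 over all genes tested. After banding the median was -0.29, with 0 of 8 above 0 and Calr at -0.00, against 0.00 and 50.7%. Averaged over surgery the median was -0.17, again with 0 of 8 above 0. The 8 members are Pdia3 and Pdia6 (disulfide isomerases), Calr and Canx (lectin chaperones), Creld2, Manf, Sdf2l1 and Hyou1. The banded and averaged comparisons both use the banded arrays, and wild-type banded 3 was the highest of 12 arrays for 6 of the 8. In the sham comparison, wild-type sham 1 was the highest of its 3 arrays for 6 of the 8, against 37.0% of all genes. The list was chosen with earlier results of these data known, so these medians and counts describe it and are not support for a difference.

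Sdf2l1, part of a chaperone complex with BiP, had the clearest separation of these. It read 82.7, 84.2 and 55.8 in wild-type sham hearts, 77.3, 87.0 and 93.1 in wild-type banded hearts, 67.8, 64.8 and 45.9 in knockout sham hearts and 45.3, 52.4 and 49.7 in knockout banded hearts. All 3 knockout banded arrays lay below all 3 wild-type banded arrays, and the sham groups overlapped. The difference was -0.64 after banding (SE 0.17, limma adjusted p = 0.157), -0.25 after sham (SE 0.17, adjusted p = 0.949) and -0.45 averaged (SE 0.12, adjusted p = 0.342). Without wild-type banded 3 the difference after banding was -0.59.

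Manf, a secreted ER protein that protects stressed cells, was lower in knockouts in both surgery groups. It read 566, 394 and 459 in wild-type sham hearts against 322, 318 and 251 in knockout sham hearts, with no overlap. After banding it read 326, 582 and 623 in wild types against 273, 391 and 328 in knockouts, which overlapped through wild-type banded 1. The difference was -0.64 after sham (SE 0.22, limma adjusted p = 0.931), -0.56 after banding (SE 0.22, adjusted p = 0.265) and -0.60 averaged (SE 0.16, adjusted p = 0.326). Without wild-type banded 3 the difference after banding was -0.40.

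Hyou1 and Canx were also lower in knockouts after banding with no overlap of arrays. Hyou1, an ER chaperone of the large HSP70 type, read 385, 445 and 415 in wild-type banded hearts and 352, 340 and 283 in knockout banded hearts (log2 difference -0.34, SE 0.14, limma adjusted p = 0.291). Its other probe sets gave -0.95 to -0.67. After sham it read 487, 366 and 337 in wild types and 288, 366 and 297 in knockouts, which overlapped (-0.30, SE 0.14, adjusted p = 0.931). Canx, which holds glycoproteins while they fold, read 2066, 2288 and 2382 against 2049, 1668 and 1641 (log2 difference -0.33, SE 0.12, adjusted p = 0.244), with other probe sets at -0.20 to -0.04. The first Canx value in each group differed by less than the spread within either group. The other folding members overlapped between genotypes after banding, with differences of -0.25 in Pdia3, -0.16 in Pdia6 and -0.11 in Creld2. The second Pdia6 probe set gave -0.88. Calr, a soluble lectin chaperone whose promoter holds the ER stress element as that of Canx does, read 2849, 3311 and 3173 against 2911, 3207 and 3181, a difference of -0.00. In the probe sets kept for the 5 genes with that element, Canx, Creld2, Pdia6, Syvn1 and Calr, the differences between genotypes after banding ran from -0.33 in Canx to -0.00 in Calr.

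**Figure D3:**
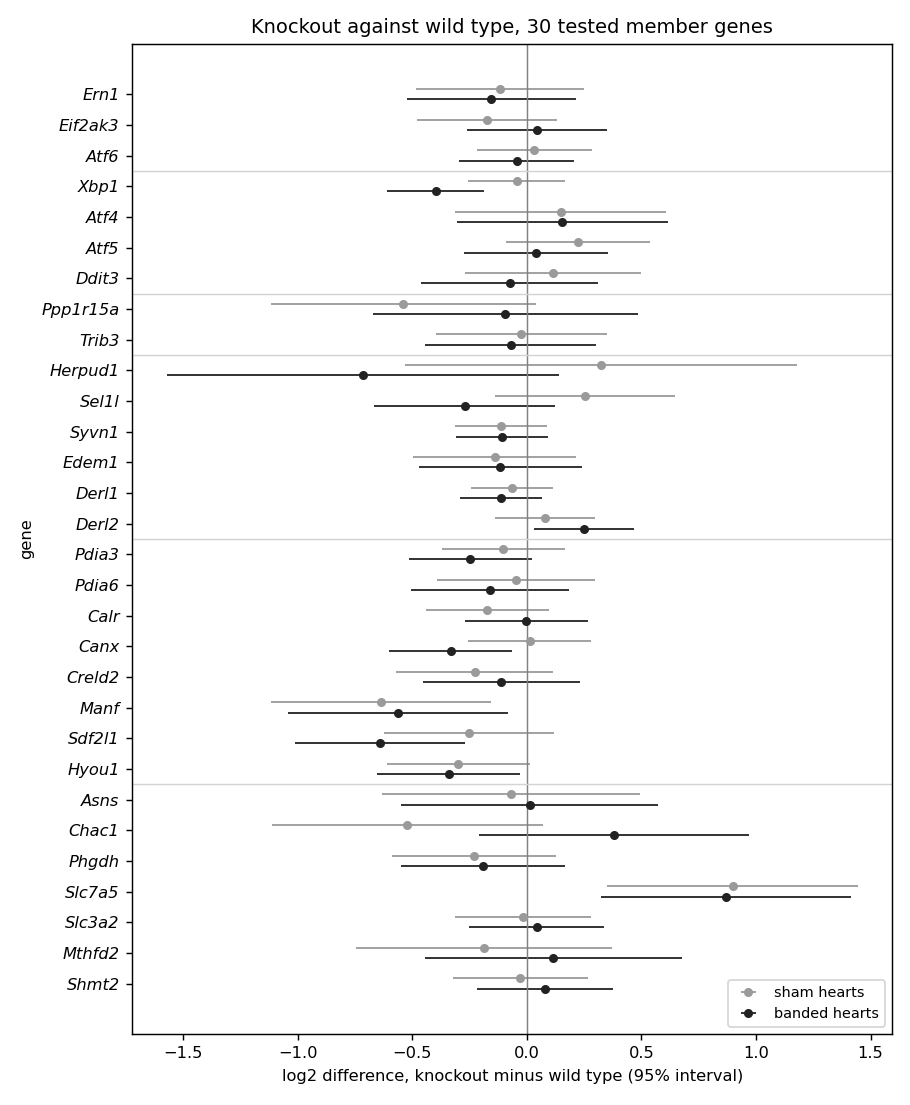
Log2 difference of knockout minus wild type (horizontal axis) for the 30 tested members (rows, by role) with 95% intervals, after sham and after banding. All 8 folding members lie below 0 after banding, and Slc7a5 lies above 0 in both surgery groups.

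Among amino acid response members, banding in knockouts gave a median log2 difference of 0.42 over the 7 tested of 10, with 6 of 7 above 0, against a median of -0.02 and 46.9% above 0 over all genes. In wild types 4 of 7 were above 0, with a median of 0.18. The 7 are Asns, Chac1, Phgdh, Slc7a5, Slc3a2, Mthfd2 and Shmt2, and none passed the threshold. The filter kept Slc7a5 through the groups where it was high, so these medians and counts, which hold it, are not support for a difference. Asns, which makes asparagine, read 153, 80.9 and 82.4 in knockout sham hearts and 136, 185 and 171 after banding. In wild types it read 149, 120 and 67.0 after sham and 146, 192 and 148 after banding. The groups overlapped in both genotypes, by the first sham array in each. The difference was 0.61 in knockouts (SE 0.26, limma adjusted p = 0.201), 0.53 in wild types (SE 0.26, adjusted p = 0.921) and 0.57 averaged (SE 0.18, adjusted p = 0.132). The second Asns probe set gave 0.49 in knockouts.

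Chac1, an enzyme that degrades glutathione, had banding differences of opposite sign in the genotypes. It read 63.6, 98.1 and 151 in wild-type sham hearts and 77.7, 84.4 and 56.3 after banding, then 53.5, 85.8 and 56.5 in knockout sham hearts and 70.4, 102 and 132 after banding. Every pair of groups overlapped. The difference was -0.39 in wild types and 0.52 in knockouts, and the interaction was 0.90 (SE 0.38, limma adjusted p = 0.526). Mthfd2 and Shmt2, mitochondrial enzymes of one-carbon metabolism, had banding differences in knockouts of 0.48 and -0.17. Shmt2 read 303, 271 and 270 in wild-type sham hearts and 208, 218 and 265 after banding, with no overlap and a difference of -0.28 (SE 0.14, adjusted p = 0.921). Phgdh, which opens serine synthesis, read between 116 and 197, with banding differences of -0.01 in wild types and 0.03 in knockouts. Its 3 other probe sets gave -0.20 to 0.71 in wild types and 0.15 to 0.79 in knockouts.

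Slc7a5 was higher in all 6 knockout arrays than in all 6 wild-type arrays. It encodes LAT1, which carries large neutral amino acids into cells as a pair with the Slc3a2 protein. Wild-type hearts read 45.8, 21.5 and 12.7 after sham and 42.3, 38.5 and 37.4 after banding, while knockout hearts read 72.9, 47.0 and 60.9 after sham and 71.7, 107 and 80.1 after banding. The highest wild-type value (45.8) and the lowest knockout value (47.0) nearly touched, and the wild-type values were near or below the median intensity of an array, which was 40.3 to 50.4. Its wild-type mean, 33.0, was under the lowest mean tested, so the tests here are of a gene that the filter kept for its knockout values. The difference was 0.90 after sham (SE 0.25, limma adjusted p = 0.931), 0.87 after banding (SE 0.25, adjusted p = 0.170) and 0.88 averaged (SE 0.18, 95% interval 0.50 to 1.27, adjusted p = 0.246). Without the filter the adjusted p was 0.906, 0.256 and 0.325 for the same differences. Without knockout banded 1, with the filter kept, the averaged difference was 0.93 (adjusted p = 0.0414), and a fit that leaves out both that array and the filter was not made. Without that array 1.32% of all genes passed. Its partner Slc3a2 read between 346 and 515, with a genotype difference of 0.01 averaged (95% interval -0.20 to 0.22).

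**Figure D4:**
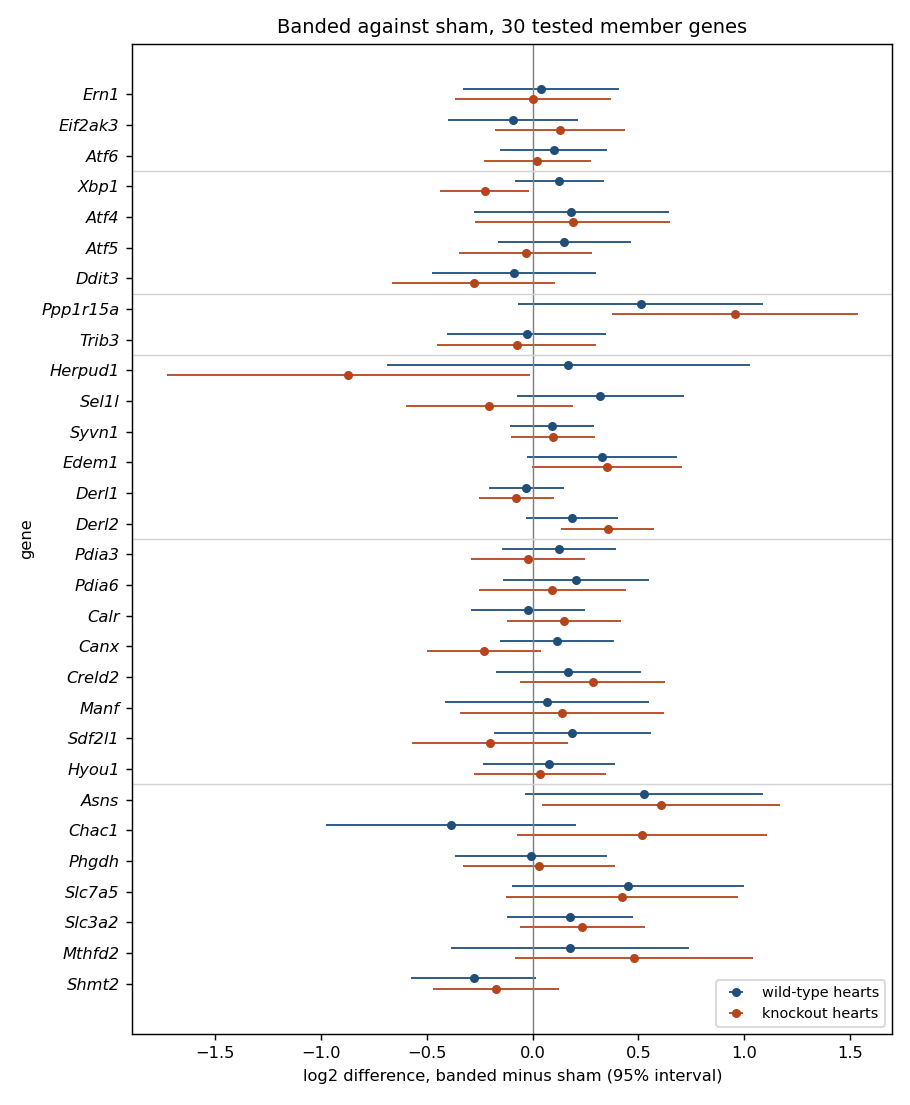
Log2 difference of banded minus sham (horizontal axis) for the 30 tested members (rows, by role) with 95% intervals, in wild-type and in knockout hearts. In knockouts the intervals of Ppp1r15a, Derl2 and Asns lie above 0 and those of Herpud1 and Xbp1 below 0, without adjustment for the number of genes. The wild-type intervals of all 30 members include 0.

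The counts over all members were read against all genes tested. For banding in knockouts, 0 of 30 members passed in either direction, against 2.04% of genes higher and 1.73% lower. At an unadjusted p under 0.05, 3 members were higher (Asns, Derl2 and Ppp1r15a) and 2 lower (Herpud1 and Xbp1), against 10.2% and 11% of genes. Arrays did not overlap in 3 members higher (Derl2, Ppp1r15a and Syvn1) and 2 lower (Herpud1 and Xbp1), against 12.2% and 14.4%, so the members' share was near the background. For banding averaged over genotypes 0 of 30 passed, against 0.934% higher and 0.641% lower, and 5 were higher (Asns, Derl2, Edem1, Ppp1r15a and Slc7a5) and 1 lower (Shmt2) unadjusted, against 8.15% and 10%. For banding in wild types 0 members passed and 0% of genes did in either direction, and unadjusted counts were 0 and 0 against 2.26% and 2.66%. Without overlap of arrays there, Edem1 was higher and Shmt2 lower, against 3.78% and 6.15% of genes.

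For knockout against wild type, 0% of genes passed in any of the 3 comparisons. At an unadjusted p under 0.05 after sham, 1 member was higher (Slc7a5) and 1 lower (Manf), against 2.55% and 2.62% of genes. After banding, 2 were higher (Derl2 and Slc7a5) and 5 lower (Canx, Hyou1, Manf, Sdf2l1 and Xbp1), against 8.07% and 6.63%. Without wild-type banded 3, the count lower was 2. Arrays did not overlap after banding in 2 members higher (Derl2 and Slc7a5) and 5 lower (Canx, Hyou1, Sdf2l1, Sel1l and Xbp1), against 10.2% and 8.94%. After sham they did not overlap in 1 higher (Slc7a5) and 2 lower (Edem1 and Manf), against 5.51% and 5.34%. Averaged over surgery, 2 were higher (Derl2 and Slc7a5) and 4 lower (Hyou1, Manf, Sdf2l1 and Xbp1), against 6.05% and 4.6%. For the interaction 1 was higher (Chac1) and 1 lower (Xbp1), against 5.08% and 4% of genes.

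By direction alone, 22 of 30 members had a banding difference above 0 in wild types, against 44.2% of genes, with a median of 0.13 against -0.02. In knockouts 19 of 30 did, against 46.9%, with a median of 0.07 against -0.02. Averaged over genotypes 22 did, against 45.2%, and arrays of 0 members did not overlap in either direction across all 12, against 0.568% of genes higher and 0.751% lower. Knockouts were above wild types in 9 members after sham, against 50.8%, in 10 after banding, against 50.7%, and in 7 averaged over surgery, against 51.2%. The medians of these were -0.07, -0.10 and -0.09, against 0.00 over all genes in each. Slc7a5 was the only member whose 6 knockout arrays did not overlap its 6 wild-type arrays, and 0.229% of genes were higher and 0.192% lower in this way. Nothing is read from that share, since the filter kept Slc7a5 for its knockout values. The interaction was above 0 in 15 of 30, against 50.3%. Each group of arrays enters several of these comparisons, so these directions are not independent of each other. The members were chosen with earlier results of these data known, so their shares are not support for a difference.

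Other genes of the same pathways were taken from a list of 81, of which 76 were matched and 71 tested. 3 of 71 rose after banding in knockouts and 3 fell, against 2.04% and 1.73% of all genes. Slc38a2 (a neutral amino acid transporter) rose by 0.76 (SE 0.17, limma adjusted p = 0.0312), Nars (the asparagine tRNA synthetase) by 0.39 (SE 0.09, adjusted p = 0.0334) and Cebpg (a partner factor of ATF4) by 0.44 (SE 0.11, adjusted p = 0.0417). Slc38a2 read 1742, 1588 and 1452 in knockout sham hearts and 2001, 3263 and 3038 after banding, without overlap. Aldh1l2 (mitochondrial folate metabolism) fell by 1.10 (SE 0.22, adjusted p = 0.0216), Stc2 (a secreted protein that ATF4 raises) by 0.88 (SE 0.20, adjusted p = 0.0355) and Mthfd1 (cytosolic one-carbon metabolism) by 0.55 (SE 0.10, adjusted p = 0.0214). Aldh1l2 read 104, 202 and 171 in knockout sham hearts and 82.3, 58.1 and 52.7 after banding. Slc38a2 (0.57, adjusted p = 0.0375) and Cebpg (0.36, adjusted p = 0.0385) rose averaged over genotypes, 2 of 71 against 0.934% of all genes. The 6 knockout calls ended, to 0 of 6, without knockout sham 2 or 3 or without knockout banded 2 or 3 (adjusted p from 0.0756 to 0.164), and 2 of 6 (Aldh1l2 and Stc2) held without knockout sham 1. That of Cebpg also ended without wild-type banded 3, wild-type sham 1 or wild-type sham 2 (adjusted p from 0.0516 to 0.0550). The averaged calls of Slc38a2 and Cebpg both held without knockout banded 1, that of Cebpg alone held without wild-type banded 2, and neither held without any 1 of the other 10 arrays (adjusted p from 0.0552 to 0.109). With all probe sets of a gene averaged, banding in knockouts gave 0.38 for Slc38a2 (adjusted p = 0.229), 0.19 for Cebpg (adjusted p = 0.303), 0.45 for Nars (adjusted p = 0.109), -0.50 for Stc2 (adjusted p = 0.0799) and -0.32 for Mthfd1 (adjusted p = 0.101). Fitted to the knockout groups alone, 0 of the 6 passed (adjusted p from 0.0674 to 0.0774). Without the filter Slc38a2, Cebpg and Stc2 did not pass (adjusted p from 0.0524 to 0.0617), without a variance trend Nars and Cebpg did not (0.0542 and 0.0549), and with quantile normalization Cebpg did not (0.0530). Averaged over genotypes, averaging the probe sets gave 0.28 for Slc38a2 (adjusted p = 0.236) and 0.14 for Cebpg (adjusted p = 0.318), and neither passed without the filter or without a variance trend (adjusted p from 0.0547 to 0.0620). The interaction was -0.998 for Aldh1l2 (adjusted p = 0.443), so no difference between genotypes passed.

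In the other comparisons 0 of these 71 genes passed. The smallest p-values for banding in wild types belonged to Cebpg (0.27, SE 0.11), Dnajc3 (0.31, SE 0.12) and Slc38a2 (0.38, SE 0.17), each with an adjusted p of 0.921. After sham they belonged to Stc2 (0.55), Vldlr (-0.34) and Mars1 (0.21), each with an adjusted p of 0.931. After banding, knockouts differed from wild types by -0.56 in Fkbp2, an ER prolyl isomerase (SE 0.11, limma adjusted p = 0.0972), by -0.96 in Gpt2, a mitochondrial alanine transaminase (SE 0.22, adjusted p = 0.127), and by 0.35 in Nars (SE 0.09, adjusted p = 0.138). Without knockout banded 1 these were -0.53 (adjusted p = 0.0327), -1.17 (adjusted p = 0.00812) and 0.40 (adjusted p = 0.0276), in a fit where 6.17% of all genes passed. Averaged over surgery, Vldlr differed by -0.45 (adjusted p = 0.264), Fkbp2 by -0.34 (adjusted p = 0.279) and Gpt2 by -0.63 (adjusted p = 0.279). Without knockout banded 1 Vldlr was at -0.52 (adjusted p = 0.0240) and Gpt2 at -0.74 (adjusted p = 0.0302), where 1.32% of all genes passed. The interaction for Mthfd1 was -0.46 and for Dnajb11 0.67, each with an adjusted p of 0.443.

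The chaperone Hspa5 (BiP), the main folding target of the unfolded protein response, is no member of the list above but bears on it. It read 3579, 2343 and 2926 in wild-type sham, 2685, 3445 and 3983 in wild-type banded, 3061, 2739 and 2644 in knockout sham and 2633, 2591 and 2322 in knockout banded hearts. All 3 knockout banded values lay below all 3 wild-type banded values, as in Sdf2l1, Hyou1, Canx and Xbp1. Of the 16 other ER folding genes tested, Hspa5 among them, 7 were above 0 in knockouts after banding and the median difference was -0.05. Dnajb11 (0.49), Dnajc10 (0.24) and Selenos (0.15) were higher in all knockout banded arrays than in all wild-type banded arrays, against 10.2% of all genes. Fkbp2 (-0.56) and Hspa5 were lower in this way, against 8.94%, so these genes did not share 1 direction. The highest of the 12 arrays for Hspa5 was wild-type banded 3. The difference of Hspa5 after banding was -0.40 (SE 0.16, limma adjusted p = 0.276), and that of banding in knockouts was -0.16 (SE 0.16).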

How the data were processed

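RNA from 12 mouse hearts was measured on Affymetrix arrays. The deposited intensity of each probe set was used as the authors gave it, and the labels do not state the software or scaling behind these intensities. The deposited values covered 45101 probe sets, of which 64 were controls. Of the others, 34945 were annotated to 1 gene, 932 to several and 9160 to none in the table used, and 34741 of the first matched RefSeq. For each of the 18193 genes the probe set with the highest mean was kept, 16 was added and log2 taken. The 10916 genes in the upper 60% of mean intensity were fitted with limma 3.58.1 (R 4.3.3; 4 group means, eBayes with a variance trend, 8 residual degrees of freedom, two-sided tests, Benjamini-Hochberg adjustment), and the fit was tested on simulated data. The number of arrays limits the precision. The median intensity of an array was 40.3 to 50.4, and arrays correlated at 0.969 to 0.981 within groups and 0.961 to 0.979 between groups.

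Every member was described by its levels. Full statistics were given, in each comparison, for members and for other pathway genes that passed, and otherwise for those with the 3 smallest p-values, with further members given because their arrays did not overlap. The members and lists were chosen with earlier results of these data known. Alternatives were other filters, pseudocounts of 1 and 64, quantile normalization, no variance trend, array weights, the mean of probe sets, only the groups compared, a replicate block and each array left out. Those for the other pathway genes were chosen after seeing the data.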

Additional observations from a re-analysis of the deposited data

How the results depend on the processing

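The count of members past the threshold was 0 in all 7 comparisons, and it stayed at 0 without the filter, in the upper 40% of genes, with a pseudocount of 1 or 64, with quantile normalization, without a variance trend, with probe sets averaged per gene and, where run, with only the groups compared. With array weights it was 5 of 30 for banding in knockouts (Asns, Derl2, Edem1, Herpud1 and Ppp1r15a; 17.3% of all genes), 3 for banding averaged over genotypes (Derl2, Edem1 and Ppp1r15a; 7.03%) and 4 for knockout against wild type after banding (Canx, Sdf2l1, Slc7a5 and Xbp1; 5.37%). The lowest weights were those of knockout banded 1 (0.43) and wild-type sham 3 (0.56), against 0.81 to 1.54 on the other arrays. This alternative is therefore not separate from leaving those arrays out. Leaving out each array in turn gave 0 to 2 members for banding in knockouts, 0 to 3 for banding averaged and 0 to 1 for knockout against wild type averaged over surgery, with every call coming from leaving out knockout banded 1 (2 members against 13.1% of all genes, 3 against 9.08% and 1 against 1.32%) or wild-type sham 3 (1 against 3.79% for banding in knockouts and 1 against 0.376% averaged). No called difference changed its sign in these alternatives. The cause was not tested.

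Over all genes tested, the 412 calls for banding in knockouts became 214 without the filter, 273 without a variance trend, 1887 with array weights, 71 with only the groups compared and 1434 without knockout banded 1, and 5 without knockout sham 3. The 172 averaged calls became 78 without the filter, 88 without a variance trend, 767 with array weights and 991 without knockout banded 1. For knockout against wild type after banding, 0 became 586 with array weights and 673 without knockout banded 1, averaged over surgery 144, and for the interaction 207. With the replicate number as a block, 0 members passed in all 7 comparisons, the knockout banding calls of Stc2, Nars and Cebpg ended (adjusted p from 0.0565 to 0.0718), the averaged ones of Slc38a2 and Cebpg ended (0.0587 and 0.0729), and all-gene calls were 222 for banding in knockouts and 59 averaged. Arrays with the same number correlated at -0.28 to 0.23 in their deviations from group means, with 2 of 18 pairs over 0.1. Arrays with different numbers correlated at -0.22 to 0.28, with 10 of 36 pairs over 0.1. What the number stands for is not stated in the labels, and whether it marks a batch was not tested. Of 494 values of the other pathway genes under alternatives, 80 lost and 8 gained a call.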

Other observations

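Atf3, a stress factor that ATF4 raises, was singled out after its values were seen, for its spread between arrays of the same group. It read 34.6, 42.8 and 650 in wild-type sham hearts, 151, 741 and 291 in wild-type banded hearts, 100.4, 55.9 and 3.57 in knockout sham hearts and 80.5, 150 and 247 in knockout banded hearts. Wild-type sham 3, which was also the highest of the 12 arrays for Herpud1 and Chac1 and the highest sham array for Ppp1r15a, held the highest sham value of Atf3.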
